A study of Mus musculus with 5 samples.

Results

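The enzymes that make, salvage and remove deoxynucleotides, the building blocks of DNA, were examined in 6DT1 mouse mammary carcinoma cells with and without knockdown of *Arid4b*. The 9 genes were chosen by their function, with earlier results of these data known: *Rrm1*, *Rrm2*, *Rrm2b*, *Tyms*, *Tk1*, *Dck*, *Dut*, *Dtymk* and *Samhd1*. All 9 were measured among 19938 genes with a probe set of 1 gene symbol. Each of 5 Affymetrix Mouse Gene 1.0 ST arrays held total RNA from 1 line, and values are log2 expression after RMA normalization by the authors, so that a difference of 1 is a doubling or halving of signal. The knockdown cohort was lines H3 and H4 (n = 2), each transduced with a lentiviral *Arid4b* shRNA that lowered ARID4B protein. The control cohort (n = 3) was line H5, whose *Arid4b* hairpin left the protein near the control level, together with a line with a scrambled hairpin in the same pLKO.1 vector, and untransduced cells. The 4 transduced lines were selected with puromycin and were pools of clones, whereas the untransduced cells were not selected. Nothing in the labels says that a line was cultured or arrayed more than once, so the spread is between lines and may be partly technical.

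Proliferating cells raise their deoxynucleotide supply when they copy their DNA. Ribonucleotide reductase, built from a large RRM1 subunit and a small RRM2 or RRM2B subunit, reduces ribonucleotides to deoxynucleotides. RRM2 is made in S phase, whereas RRM2B is a target of p53 that supplies quiescent or damaged cells. Thymidine nucleotides need further steps: DUT hydrolyses dUTP to dUMP, TYMS methylates dUMP to dTMP, TK1 recovers dTMP from thymidine, and DTYMK phosphorylates dTMP. DCK salvages deoxycytidine and the purine deoxynucleosides, and SAMHD1 works in the opposite direction by hydrolysing deoxynucleoside triphosphates.

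Messenger RNA of 8 of the 9 enzymes was lower in the *Arid4b* knockdown lines, while none was higher, where a gene counts if its limma p before adjustment is under 0.05. Over all genes 7.61% were lower and 4.34% were higher by this rule (12.0% in either direction, 2383 genes). *Rrm2*, *Tyms*, *Tk1*, *Dck* and *Rrm1* fell to between 47.1% and 54.3% of the control level, *Dtymk* to 72.9%, *Dut* to 82.4%, and *Rrm2b*, the p53-induced subunit, also fell, to 78.9%. *Samhd1* did not pass the test. No member passed an adjusted p under 0.05 over all genes, with limma or with an unmoderated equal-variance test, and of all genes 0 did with limma and 3 with the unmoderated test. In 8 of the 9 genes both knockdown lines lay below all 3 control lines, against 13.5% of all genes. The count of lower members was 2 without H5 and 5 without the untransduced cells, against 3.89% and 5.07% of all genes in those fits. It was 7 without the scrambled line, against 1596 of 19938 genes, and 2 with the unmoderated test, against 4.19% of all genes. *Rrm1* and *Rrm2b* were the members that passed in each of these fits. Calls were lost without H3, and most without H4, each of which leaves 1 knockdown line. The median difference of the members from the control mean was -0.50 in H3 and -1.14 in H4, against 0.04 and 0.01 for all genes.

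**Figure D1:**
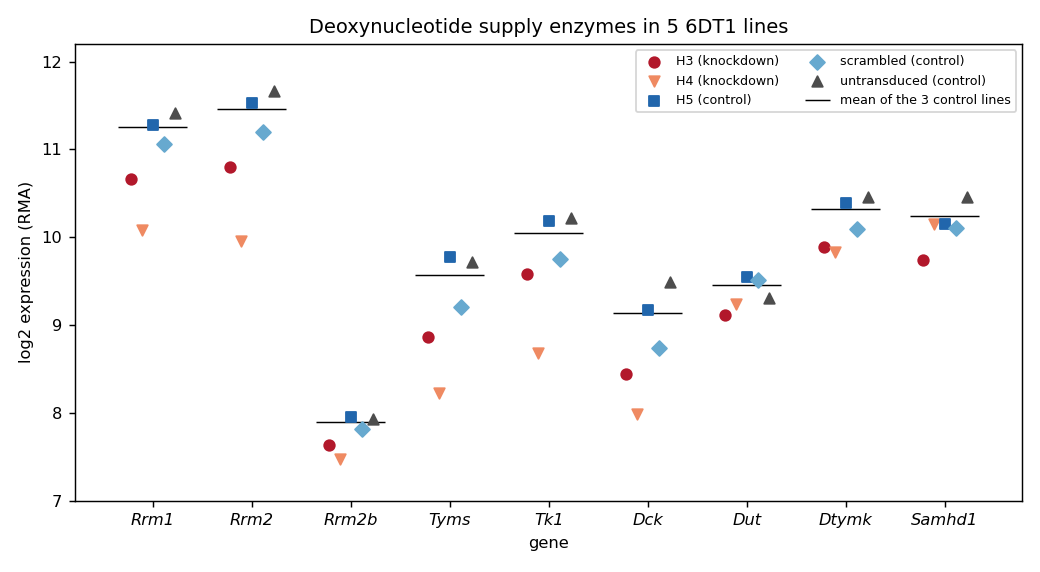
Log2 expression (vertical axis) of each deoxynucleotide supply enzyme (horizontal axis) in the 5 lines, 1 symbol per line and array, with a bar at the mean of the 3 control lines. H3 and H4 lie below every control line in 8 genes, while for *Samhd1* H4 lies at 10.15, level with H5; heights of different genes are not comparable.

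As a check of the labels, *Arid4b* itself was at 6.88 (H3) and 7.35 (H4), while the control lines averaged 8.31 ± 0.06 (SD, n = 3), and the labels give ARID4B densitometry of 0.19 for H3, 0.15 for H4 and 1.00 to 1.09 for the control lines, relative to the scrambled line. The median over all probe sets was 6.35 on the H3 array and 6.24 to 6.25 on the others, and the SD was 2.25 against 2.29 to 2.30. Of the mammary epithelial markers, the luminal keratins *Krt8* and *Krt18* lay between 11.57 and 12.26 in every line, whereas *Epcam*, *Cdh1*, *Krt5* and *Krt14* lay between 5.61 and 6.16, under the median of all genes in each line (6.73 to 6.83). Of 7 measured leukocyte, endothelial and fibroblast markers, none passed the unadjusted threshold. The leukocyte marker *Ptprc* was at 4.98 to 5.15. The fibroblast markers *Col1a1*, at 7.34 to 7.79, and *Pdgfra*, at 6.88 to 7.36, lay above the median of all genes in each line. The calls of both marker lists changed when H3 or H4 was left out, which leaves 1 knockdown line. Without H4 the calls gained in both lists were all toward higher values in H3. The median difference of these 7 markers from the control mean was 0.09 in H3 and 0.06 in H4. It was 0.10 and -0.01 for the 6 epithelial markers, and 0.04 and 0.01 for all genes.

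Both S-phase subunits of ribonucleotide reductase were lower in the knockdown lines. *Rrm1*, which carries the catalytic and regulatory sites, was at 10.67 in H3 and 10.08 in H4, with H5 at 11.28, the scrambled line at 11.06 and untransduced cells at 11.42. *Rrm2*, which carries the radical that starts catalysis, was at 10.80 in H3 and 9.96 in H4, against 11.52, 11.20 and 11.66 in the same order of control lines. In both genes H4 was the lowest line, H3 the next, and the scrambled line the lowest control. The log2 fold change was -0.88 for *Rrm1* (standard error 0.21, 95% confidence interval -1.44 to -0.32, adjusted p = 0.313 from limma) and -1.09 for *Rrm2* (standard error 0.29, 95% confidence interval -1.86 to -0.31, adjusted p = 0.332 from limma). Of all genes, 0.361% had a lower fold change than *Rrm2*. Without H4 the fold changes were -0.59 and -0.67, and neither gene passed the unadjusted threshold. In such bulk RNA, fewer cells in S phase and less of these RNAs per cell cannot be told apart.

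The windows from 250 bases before to 50 bases after the RefSeq start are shown for *Rrm1*, *Rrm2* and *Dtymk*, since these members were all lower and are the ones whose window holds CCAAT, the letters bound by NF-Y. Coordinates are of GRCm38.p6, each sequence runs 5′ to 3′ on the gene's strand, and capitals mark CCAAT or its reverse complement ATTGG, and GGCGGGAA or its reverse complement TTCCCGCC, letters of an E2F motif.
Rrm1 (chr7:102441445-102441744, plus strand): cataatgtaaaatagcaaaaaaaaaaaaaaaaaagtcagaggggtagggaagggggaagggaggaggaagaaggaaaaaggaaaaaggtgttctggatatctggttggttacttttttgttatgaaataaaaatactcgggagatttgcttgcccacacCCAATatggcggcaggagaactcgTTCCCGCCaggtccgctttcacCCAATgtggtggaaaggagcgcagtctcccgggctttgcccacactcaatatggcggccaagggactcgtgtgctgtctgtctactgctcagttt
Rrm2 (chr12:24708004-24708303, plus strand): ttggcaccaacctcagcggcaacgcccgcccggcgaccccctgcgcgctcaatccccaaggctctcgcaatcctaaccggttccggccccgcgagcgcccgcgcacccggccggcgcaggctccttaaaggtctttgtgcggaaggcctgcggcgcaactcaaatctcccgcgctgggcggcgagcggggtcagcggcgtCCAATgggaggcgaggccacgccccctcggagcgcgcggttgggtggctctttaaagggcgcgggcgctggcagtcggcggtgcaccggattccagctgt
Dtymk (chr1:93801885-93802184, minus strand): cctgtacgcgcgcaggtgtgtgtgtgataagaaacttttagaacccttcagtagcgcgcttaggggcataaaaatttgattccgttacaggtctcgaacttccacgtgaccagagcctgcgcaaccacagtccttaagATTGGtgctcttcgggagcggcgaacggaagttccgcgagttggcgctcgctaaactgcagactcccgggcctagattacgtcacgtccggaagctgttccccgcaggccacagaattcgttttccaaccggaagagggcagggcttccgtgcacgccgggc
CCAAT occurred at positions -91 and -45 in *Rrm1*, at -50 in *Rrm2*, and as ATTGG at -112 in *Dtymk*, counted from the RefSeq start, with the base before it as -1 and each match placed by its leftmost base. The letters were about as frequent in the members as elsewhere: 3 of 8 member windows held them, beside 37.4% of 32851 windows in the genome. GGCGGGAA was found at -67 in *Rrm1* alone, against 2.19% of all windows. Another E2F pattern, TTTNGCGC, was in none of the 8 windows and in 1.38% of all. TTTGAA, the cell cycle homology region, was in *Dck* alone, against 17.9% of all. The GC box GGGCGG was in 6 of 8, *Samhd1* among them, against 35.7% of all windows. All patterns were searched on both strands, GGCGGGAA and GGGCGG can share bases, and a match describes letters and not a bound factor. No window was given for *Rrm2b*.

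The enzymes of thymidine nucleotides were lower to unequal extents. *Tyms*, the target of fluoropyrimidine drugs, was at 8.86 in H3 and 8.22 in H4, with H5 at 9.77, the scrambled line at 9.21 and untransduced cells at 9.71, a log2 fold change of -1.02 ± 0.27 (SE, limma adjusted p = 0.327). *Tk1*, the salvage kinase that is a marker of proliferation, was at 9.58 and 8.69 against 10.19, 9.75 and 10.22, a log2 fold change of -0.92 ± 0.32 (SE, limma adjusted p = 0.384). For *Tk1* the gap between H3 and the scrambled line was 0.16, and H4 minus H3 was -0.90, so that without H4 the fold change was -0.47. A second probe set named *Tk1*, with a lower mean, gave -0.95, with 8.50 in H3 and 7.54 in H4 against 8.75 to 9.15 in the control lines. Whether both probe sets lie in the *Tk1* locus was not checked. *Dtymk* was at 9.89 in H3 and 9.83 in H4, against 10.39, 10.10 and 10.46, a log2 fold change of -0.46 ± 0.12 (SE, limma adjusted p = 0.335). Unlike *Tyms* and *Tk1*, *Dtymk* lay at nearly the same level in H3 and H4, with a difference of -0.06.

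Of the 8 lower enzymes, *Dut* had the smallest fall. It was at 9.12 in H3 and 9.24 in H4, with H5 at 9.55, the scrambled line at 9.51 and untransduced cells at 9.31, so that the nearest lines of the cohorts were 0.07 apart. Its log2 fold change was -0.28 ± 0.09 (SE, limma adjusted p = 0.381), and it missed the unadjusted threshold after quantile normalization, at -0.20. *Dut* was also the only member in which the untransduced cells were the lowest control. *Dck*, in contrast, was highest in untransduced cells: it was at 8.44 in H3 and 7.99 in H4, against 9.17, 8.74 and 9.49. Its log2 fold change was -0.91 ± 0.27 (SE, limma adjusted p = 0.347), beside a range of 0.75 within the control lines, the widest of the 9 genes.

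**Figure D2:**
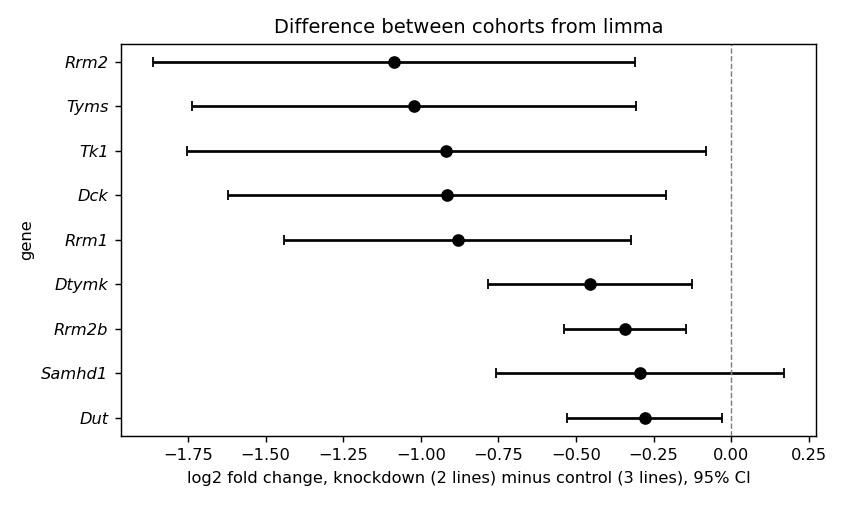
Log2 fold change of the knockdown cohort (2 lines) against the control cohort (3 lines) for each enzyme, with 95% confidence intervals from limma as bars. *Rrm2* at -1.09 and *Tyms* at -1.02 lie furthest from 0, and the interval of *Samhd1*, from -0.76 to 0.17, is the one that includes 0.

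*Rrm2b* and *Samhd1* were set against the S-phase enzymes. *Rrm2b* was at 7.63 in H3 and 7.48 in H4, with H5 at 7.96, the scrambled line at 7.82 and untransduced cells at 7.93, and the cohorts did not overlap. Its log2 fold change was -0.34 (standard error 0.07, 95% confidence interval -0.54 to -0.15, adjusted p = 0.292 from limma), the lowest adjusted p of the 9 genes. Most other p53-induced genes differed in the opposite direction, although *Perp* was at -0.10 and *Sesn1*, at 0.10, overlapped the control lines. Of 13 measured, 9 were higher, none was lower, and 11 lay above all 3 control lines in both knockdown lines, against 13.9% of all genes. This list was chosen with earlier results of these data known. It holds *Btg2*, *Zmat3*, *Trp53inp1* and *Sesn2*, which the authors name among the most upregulated genes on these arrays. Its counts were therefore partly set by the choice of genes, and the share of all genes is no test of them. The median of the list was 0.38, with *Btg2*, an antiproliferative gene, at 1.46, *Zmat3*, an RNA-binding protein, at 1.07, *Ccng1*, which encodes cyclin G1, at 0.33 and *Bbc3*, which encodes the death-promoting PUMA, at 0.28. The fold change of *Bbc3* was 0.17 without H3, and its call was lost without H3, H5 or the untransduced cells. *Trp53* itself and *Cdkn1a* were not analysed here.

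*Rrm2b* fell less than *Rrm2* in both knockdown lines. Its difference from the control mean was -0.27 in H3 and -0.42 in H4, and that of *Rrm2* was -0.67 and -1.51. The *Rrm2b* minus *Rrm2* difference, whose absolute size has no meaning across probe sets, was -3.16 in H3 and -2.48 in H4, with H5 at -3.57, the scrambled line at -3.38 and untransduced cells at -3.74. It was 0.74 higher in the knockdown cohort, with both knockdown lines above all control lines (exact permutation test, two-sided, p = 0.1, the smallest that the 10 arrangements of 2 against 3 lines can give). Without H3 the value was 1.09 and without H4 it was 0.40.

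*Samhd1* was at 9.74 in H3 and 10.15 in H4, with H5 at 10.15, the scrambled line at 10.10 and untransduced cells at 10.46. H3 lay below every control line, while H4 had the same deposited value as H5 and lay above the scrambled line. The log2 fold change was -0.29 (standard error 0.18, 95% confidence interval -0.76 to 0.17, adjusted p = 0.493 from limma), an interval that holds both no change and the falls of *Dut*, *Rrm2b* and *Dtymk*. The fold change was -0.09 without H3, -0.50 without H4 and -0.18 without the untransduced cells. The gene is inducible by interferon in several cell types. Of 7 measured interferon-stimulated genes, 1 was lower and none was higher, against 7.61% and 4.34% of all genes. A count of 1 in 7 does not set the list apart from that share. The lower gene was *Ifit2*, at -0.38, a call lost without H3.

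The 2 knockdown lines differed in most of these genes. H4 lay below H3 in 7 of the 9, as it did in 58.9% of all genes, with a log2 difference, H4 minus H3, of -0.90 in *Tk1*, -0.84 in *Rrm2*, -0.64 in *Tyms*, -0.59 in *Rrm1* and -0.45 in *Dck*. H4 was above H3 in *Samhd1*, by 0.41, and in *Dut*, by 0.12. In the 5 genes with the largest falls, the difference from the control mean was -1.51 to -1.14 in H4 and -0.70 to -0.47 in H3. Each line was arrayed once, so the difference between H3 and H4 has no test. Within the control cohort the scrambled line was the lowest in 8 of the 9 genes, beside 34.2% of all genes, at -0.36 from the control mean in *Tyms* and -0.39 in *Dck*.

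**Figure D3:**
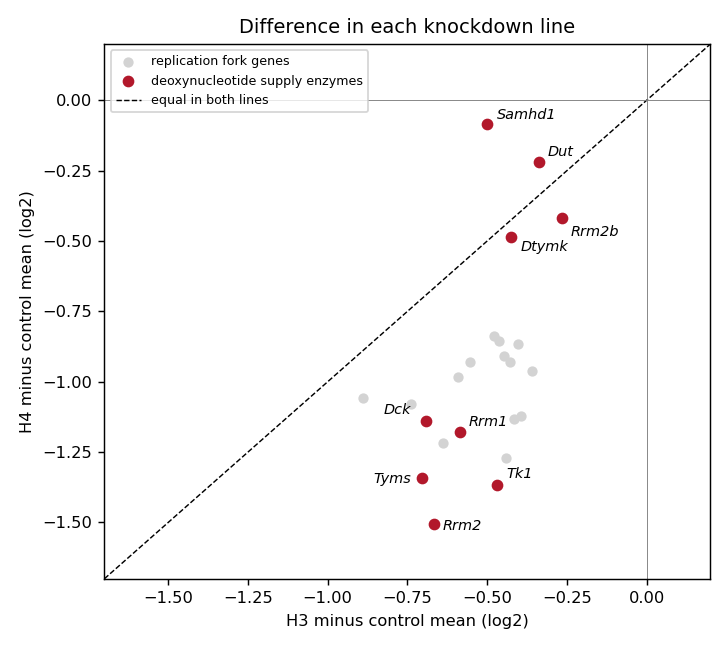
Log2 difference from the control mean (3 lines) in H3 (horizontal axis) and in H4 (vertical axis), with the deoxynucleotide supply enzymes in red, 14 replication fork genes in grey and a dashed line where both differences are equal. *Rrm2*, *Tyms*, *Tk1*, *Dck* and *Rrm1* lie below the dashed line, while *Samhd1* and *Dut* lie above it.

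Genes of the replication fork, where deoxynucleotides are consumed, were also lower in the knockdown lines. All 14 measured were lower and below every control line, against 7.61% and 13.5% of all genes. Their median was -0.75, against -0.91 for *Rrm1*, *Rrm2*, *Tyms*, *Tk1*, *Dck*, *Dut* and *Dtymk*, and 0.03 for all genes. The lowest were *Pola1*, the catalytic subunit of polymerase alpha, at -0.97, and *Gins1*, of the replicative helicase, at -0.93. *Rfc3* and *Rfc4*, subunits of the clamp loader, had the smallest falls, at -0.66 and -0.63, and *Rfc4* was at -0.40 without H4. The medians of the fork genes were -0.46 in H3 and -0.97 in H4, beside -0.59 and -1.18 for the S-phase enzymes. Without H5 the count of lower fork genes was 6 and without the untransduced cells 8, against 3.89% and 5.07% of all genes in those fits. Most calls were lost without H4, which leaves only H3, where the median was -0.46.

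Over all genes 7.61% were lower and 4.34% were higher, while of 10 measured regulators of these enzymes 4 were lower and none was higher. They were *E2f8* (-1.02) and *E2f7* (-0.93), repressors that are themselves E2F targets, *Ccnf* (-0.84), the F-box protein that marks RRM2 for degradation in G2, and *Rbl1* (-0.78), which encodes the pocket protein p107. *E2f1*, an activator, had a log2 fold change of -0.27 (adjusted p = 0.491 from limma), and *Fzr1*, the activator of the ligase that degrades TK1 and RRM2 in G1, one of -0.19 (adjusted p = 0.534 from limma). Without H4 the fold changes were -0.59 for *E2f8* and -0.44 for *Ccnf*, and the calls of *E2f8*, *E2f7* and *Ccnf* were lost. The count of lower regulators was 2 without H5 and 2 without the untransduced cells, against 3.89% and 5.07% of all genes in those fits.

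The steps that feed the deoxynucleotide enzymes showed smaller differences. The folate cycle supplies the methyl group to TYMS. There, 4 of 5 measured genes were lower and none was higher, against 7.61% and 4.34% of all genes, with a median of -0.48. *Mthfd1l* (-0.54) and *Mthfd1* (-0.49) interconvert folate one-carbon units, and *Shmt2* (-0.32) and *Shmt1* (-0.27) take those units from serine. Without H5, 2 genes of the cycle were lower, against 3.89% of all genes in that fit. Calls were also lost without H3 or H4, which leaves 1 knockdown line. The median difference of the cycle from the control mean was -0.32 in H3 and -0.50 in H4. Of 5 genes of de novo pyrimidine synthesis none passed the threshold, although the median was -0.45 and *Umps*, which forms UMP, was at 9.42 in H3 and 9.47 in H4 against 9.60 to 10.18 in the control lines (-0.47, adjusted p = 0.425 from limma). Without the scrambled line 3 of the 5 were lower, without H4 it was 1, and without the untransduced cells 1 was higher. Of 11 genes of de novo purine synthesis, 1 was lower and 1 was higher, against 7.61% and 4.34% of all genes. Both encode isoforms of the same enzyme that makes the ribose donor: *Prps1* at -0.31 and *Prps2* at 0.16. The call of *Prps2* was lost without any one of the lines, and that of *Prps1* without H3 (fold change -0.17), H5 or the untransduced cells. The count of lower purine genes was 3 without the scrambled line and 0 without H5.

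Salvage and interconversion outside the S-phase enzymes showed few differences. None of 13 genes of other nucleoside salvage and transport passed the threshold, and their median was -0.03. Without the untransduced cells 2 were lower, against 5.07% of all genes in that fit. Calls in both directions also appeared without H4, which leaves 1 knockdown line. The 13 genes include the mitochondrial counterparts of *Tk1* and *Dck*, named here after their values were seen. *Tk2* was at 8.23 in H3 and 8.31 in H4 against 7.60 to 8.20 in the control lines (0.30, adjusted p = 0.500 from limma), and *Dguok* was at 9.78 in both against 9.79 to 10.04 (-0.17, adjusted p = 0.491 from limma). Of 9 nucleoside diphosphate and monophosphate kinases 2 were lower and none was higher, against 7.61% and 4.34% of all genes. The 2 were *Nme7* (-0.50) and *Nme3* (-0.35). None of 4 electron donors of ribonucleotide reductase, such as thioredoxin (*Txn1*, -0.04), and none of 11 genes of nucleotide cleaning and breakdown passed. Calls appeared in both lists without H3, and among the cleaning genes without H4, each of which leaves 1 knockdown line. The median difference of the electron donors from the control mean was -0.06 in H3 and -0.15 in H4. That of the cleaning genes was -0.21 and -0.11.

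**Figure D4:**
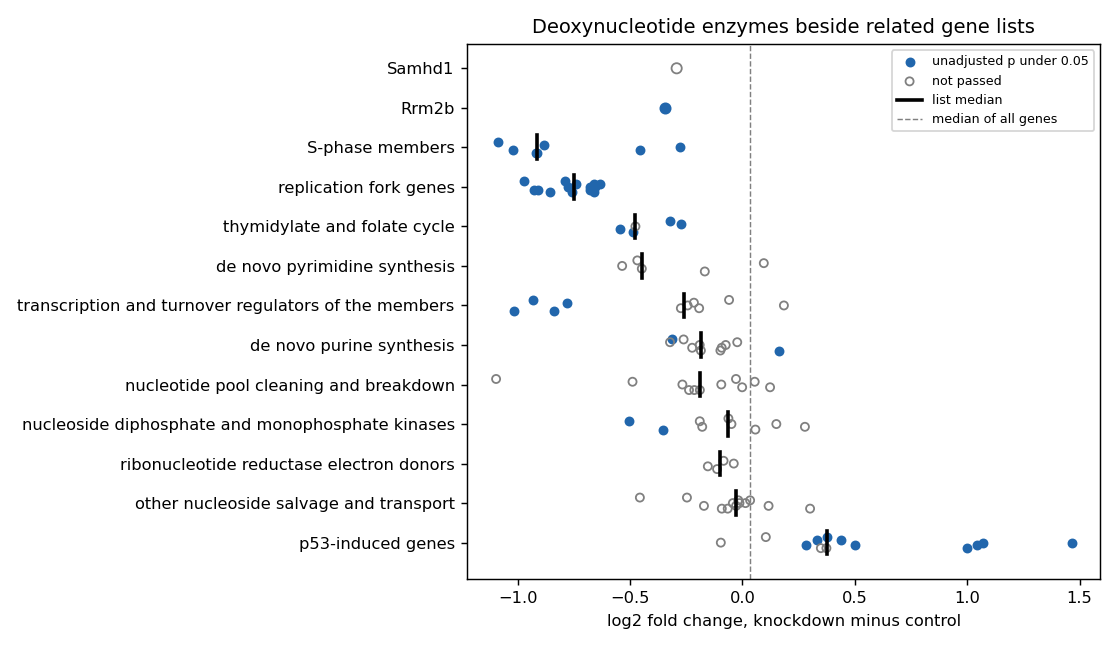
Log2 fold change of the knockdown cohort against the control cohort (horizontal axis) for single genes (points) of each list (rows), with filled points at an unadjusted p under 0.05 from limma, black bars at the list medians and a dashed line at the median of all genes. The S-phase members (median -0.91) and the replication fork genes (-0.75) lie to the left, other salvage genes around 0 (-0.03), and p53-induced genes to the right (0.38), with *Rrm2b* on the left at -0.34.

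The genes most like *Rrm2* and *Rrm2b* over the 5 lines differed. Likeness was the Euclidean distance between log2 profiles over 5 lines, each centred on its own mean. Nearest to *Rrm2* were *Knl1* (distance 0.079), *Pclaf* (0.097), *Cenpn* (0.097), *Tpx2* (0.097) and *Incenp* (0.112). Among all genes ordered by distance from *Rrm2*, *Tk1* was at place 32, *Tyms* at 48, *Rrm1* at 82, *Dck* at 119, *Dtymk* at 600, *Rrm2b* at 846, *Dut* at 2595 and *Samhd1* at 3294. The distance rests on the same 5 values as the fold change, so genes with falls of like size are near by construction. Nearest to *Rrm2b* were *Avpi1* (0.048), *Dab2* (0.053), *Pcnt* (0.055), *BC005537* (0.060) and *Rnf181* (0.067), none of them a member. These distances describe 5 arrays, all the points of a profile share the normalization, and small distances are easier to reach for genes that vary little.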

How the data were processed

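Total RNA of each of 5 lines was hybridised to its own Mouse Gene 1.0 ST array (Affymetrix). The deposited values are log2 expression values, which the authors normalized in Partek Genomics Suite. RMA is named in the processing notes of the submitters, and no version is given in the sources used here. Of 35556 probe sets, 21789 had 1 symbol in the platform annotation, 1621 had several and 12146 were unnamed here. The gene ID of 21698 was found in a RefSeq table of GRCm38.p6 and its symbol was used. Where several probe sets shared a symbol (999 of 19938 genes), that of highest mean was taken.

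Lines were assigned to cohorts by the ARID4B level in the labels. Differences were tested with lmFit and eBayes of limma 3.58.1 under R 4.3.3 (3 residual and 1.58 prior degrees of freedom), and p-values were adjusted by Benjamini-Hochberg over every gene. Genes were called at an unadjusted p under 0.05, after the study's methods. This step was tested on simulated data. The *Rrm2b* minus *Rrm2* value was compared with an exact permutation test over lines. Members and lists were chosen with earlier results of these data known. Named genes were all members, *Arid4b*, up to the 2 lowest and 2 highest fold changes past the threshold in each list, and the 5 genes nearest to *Rrm2* and to *Rrm2b*. *E2f1*, *Fzr1*, *Umps*, *Tk2*, *Dguok*, *Txn1*, *Trp53*, *Cdkn1a*, *Pnp*, *Ctps2* and the cell type markers lie outside this rule and were named after values were seen. Alternatives were subtraction of array medians, quantile normalization, leaving out genes of low mean, averaging probe sets, an unmoderated equal-variance test, limma with trend and robust options, a covariate for puromycin selection, and omission of each line in turn. Promoter windows are RefSeq's, and figures were drawn with matplotlib 3.10.9. The number of arrays limits the precision.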

Additional observations from a re-analysis of the deposited data

How the results depend on the processing

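The 9 enzymes kept their direction under every alternative. The count of lower members was 2 with the unmoderated equal-variance test and 5 with a puromycin covariate, which is the same fit as leaving out the untransduced cells. It ranged from 1 to 7 when each line was left out in turn, where a lone knockdown line takes its spread from the controls. The other alternatives gave 7 or 8. No member was higher, or passed the adjusted threshold, under any of them. The *Rrm2b* minus *Rrm2* value was 0.74 or 0.76 under the other scalings and probe set rules, and 0.40 to 1.09 when each line was left out. Over all genes the count of lower genes was 1517, and it was 835 with the unmoderated test, 776 without H5, 1011 without the untransduced cells, 1596 without the scrambled line, 1806 without H3 and 1986 without H4. Higher genes numbered 408 without H5, 508 without the untransduced cells, 701 without the scrambled line, 1370 without H3 and 4901 without H4, against 866. The share of lower genes was 10.2% with array medians subtracted and 6.68% after quantile normalization, against 7.61%. With the same 2 scalings the lower and higher genes numbered 2041 and 509, and 1332 and 1300, against 1517 and 866. The unmoderated test gave 6 lower replication fork genes, 2 of the folate cycle and 2 regulators, and the puromycin covariate gave 8, 3 and 2, against 14, 4 and 4. The count of higher p53-induced genes was 6 to 9 under all alternatives. Genes past the adjusted threshold numbered 1266 without H4, 4 with genes of low mean left out and 3 with the unmoderated test. The causes were not tested. No paired analysis was possible because the lines carry no replicate numbers shared between the cohorts.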

Other observations

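Genes of nucleotide metabolism also held values at which H3 stood apart from the other 4 lines, named here after their values were seen. *Pnp*, the purine nucleoside phosphorylase that removes deoxyguanosine, was at 7.08 in H3, against 8.85 in H4, 8.98 in H5, 9.11 in the scrambled line and 9.10 in untransduced cells. *Ctps2*, which encodes one of the enzymes that form CTP, was at 8.56 in H3, against 9.50 in H4 and 9.55, 9.55 and 9.59 in the control lines. Neither passed the unadjusted threshold between the cohorts, with log2 fold changes of -1.10 (adjusted p = 0.480 from limma) and -0.54 (adjusted p = 0.491 from limma).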
